A study of Mus musculus with 16 samples.

Results

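The transcriptomes of induced pluripotent stem cells (iPSCs) whose library titles carry the number 4 were compared with those whose titles carry the number 1, in 8 of the 16 libraries of the series. iPSCs are cells returned to an embryo-like state in which they can form every tissue. The cells were made from mouse embryonic fibroblasts of the genotype that the labels spell ColA1_miR203; Rosa26rtTA, in which doxycycline turns on a construct for the microRNA miR-203 through the transactivator rtTA placed at Rosa26. The 4 libraries of number 4 were KID4, KIV4, KIXD4 and KIXV4, and the 4 of number 1 were KID1, KIV1, KIXD1 and KIXV1. They form 4 groups of 2 libraries, KI and KIX at each number, with the letters D and V inside each group. The study followed a short miR-203 pulse over time, starting before doxycycline. The labels define neither prefix, letter nor number, tie no number to a time point, and list doxycycline for 5 to 7 days for all of these libraries, number 1 included. The titles were therefore compared as codes. Mir203, the gene of the microRNA, was listed at 0 in the 4 KI libraries and at 1728 FPKM or more in the 4 KIX libraries, although the labels give both prefixes the same genotype and doxycycline. Whether KI was induced, or carried the construct, is therefore not known, and KI against KIX is a comparison of codes only. The labels do not say whether KI and KIX are separate lines or clones, nor whether D and V are separate cultures or differ in treatment, and every p-value below rests on the spread among these libraries, which may be technical. All cells grew on a layer of feeder cells, whose RNA can enter a bulk library.

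Mouse pluripotent cells move between a naive state, like the inner cell mass of the blastocyst, and a primed or formative state, like the epiblast after implantation, in which de novo DNA methyltransferases and factors such as Otx2 are high. Interferon, released by cells that sense foreign nucleic acid, acts through a complex that holds Stat2 on genes whose promoters carry interferon-stimulated response elements. Those genes include antiviral enzymes, chemokines and the class I molecules of the major histocompatibility complex (MHC), which show peptides to T cells. When oxygen is low, hypoxia-inducible factors bind a short core sequence near genes of glycolysis and of mitochondrial turnover.

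Expression was deposited as FPKM, fragments scaled to transcript length and to library size. Total expression lay between 641890 and 724350 FPKM per library, and 12180 to 12375 genes reached 1 FPKM. The sequencing depth is unknown. Pluripotency genes were highly expressed: Pou5f1, the central pluripotency factor, lay between 926 and 1089 FPKM in the 8 libraries, and Sox2 between 124 and 175 FPKM. Neither was called between the numbers (adjusted p = 0.445 and 0.169). Among genes that averaged 50 FPKM or more, the log2 difference between D and V of 1 prefix and number had an SD of 0.0784 to 0.199. Between libraries of different number the SD was 0.235 to 0.396.

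In all, 12835 genes that reached 1 FPKM in 2 or more of the 8 libraries were tested with limma on log2(FPKM + 1), and changes below are on that scale, as number 4 minus number 1. A gene was called at a Benjamini-Hochberg adjusted p under 0.05. Some genes reached 1 FPKM in 2 libraries at one number only, such as Egr2, Egr3, Fosb, Tlr3, Eln, H2-Q9, Cxcl11, Rsad2, Sprr2k, Nlrc5, Sox17 and Sox7. These genes entered the test through the number where they were high, and their calls are given as a description. Averaged over the prefixes, 4938 genes were called (38.5% of those tested), of which 2144 rose (16.7%) and 2794 fell (21.8%). Within KI 1929 genes were called (15.0%), with 677 rises (5.27%) and 1252 falls (9.75%). Within KIX 4009 were called (31.2%), with 1883 rises (14.7%) and 2126 falls (16.6%). Shared changes, called in KI and in KIX with the same sign, numbered 1100 (8.57%), with 398 rises (3.10%) and 702 falls (5.47%). They made up 57.0% of the KI calls and 27.4% of the KIX calls. Only 36 shared rises (0.280%) and 123 shared falls (0.958%) reached a 2-fold change of the mean. The change itself differed between KIX and KI for 277 genes (2.16%), with 141 higher in KIX (1.10%) and 136 lower (1.06%). Most of these were called in KIX alone: 103 rose there and 96 fell there without a call in KI. The median change over all tested genes was -0.02.

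**Figure D1:**
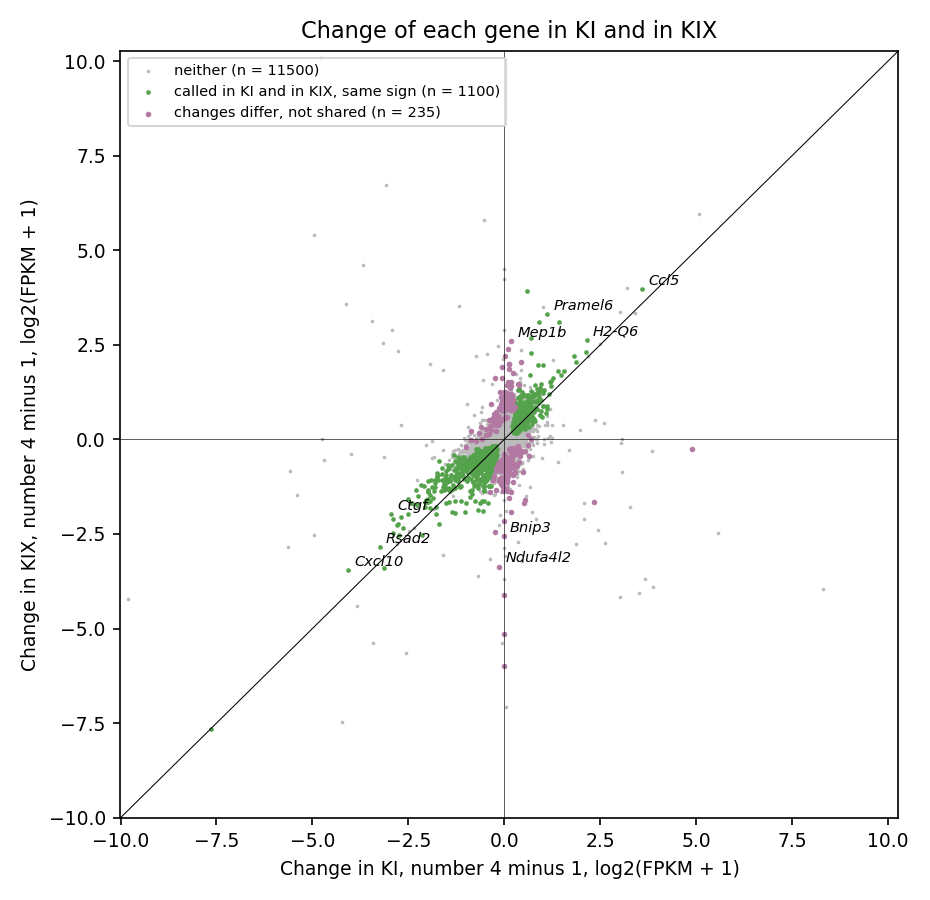
Change of each of the 12835 tested genes from number 1 to number 4 in KI (horizontal axis) and in KIX (vertical axis), both in log2(FPKM + 1). Green points are the 1100 shared genes, purple points 235 genes whose changes differed and were not shared, grey points the other 11500 genes, and the diagonal marks equal changes. Cxcl10 and Rsad2 lie low near the diagonal, Ccl5 and H2-Q6 high near it, and Ndufa4l2 and Bnip3 lie low in KIX at a KI change near 0. The green point farthest down is Snord95, a short gene listed at 0 at number 4.

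These counts depended on single libraries. Without any 1 library other than KIV4 the shared genes numbered 351 (without KID1) to 644 (without KIV1), and without KIV4 they numbered 1576. The called differences between KIX and KI numbered 18 to 24 without any 1 of the KIX libraries, 80 without KID1, 35 without KIV1 and 2538 without KIV4. When disagreement of the prefixes was left in the residual (means by letter and number), 1325 genes were called on the mean change.

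The promoters below are shown because they hold the core of response elements known for the main gene groups. They run from 250 bases before to 50 bases after the RefSeq start of each gene, on the gene's strand and in build GRCm38.p6, and capitals mark the motif searched on both strands. Cxcl10 (chr5:92348840-92349139, minus strand) and Ifit1 (chr19:34640639-34640938, plus strand) fell with other interferon-induced genes, and B2m (chr2:122147437-122147736, plus strand) rose with the MHC class I genes. In these 3 the capitals mark a pair of GAAA letters spaced by 2 bases of any kind, the core of the interferon-stimulated response element, which stands in 299 of 10062 promoters of tested genes (2.97%). Bnip3 (chr7:138909457-138909756, minus strand) fell in KIX, and its capitals mark ACGTG, the core that hypoxia-inducible factors bind, here matched on both strands with the 2 matches overlapping. ACGTG stands in 26.2% of the promoters of tested genes and in 8 of the 12 hypoxia-list promoters available (66.7%). A promoter entry was found for 78.4% of tested genes.
Cxcl10: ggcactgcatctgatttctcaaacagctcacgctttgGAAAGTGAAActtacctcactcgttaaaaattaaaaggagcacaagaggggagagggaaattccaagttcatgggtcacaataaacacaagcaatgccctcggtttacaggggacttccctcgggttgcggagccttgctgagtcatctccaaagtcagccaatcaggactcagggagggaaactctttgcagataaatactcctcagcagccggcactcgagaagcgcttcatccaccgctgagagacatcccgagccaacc
Ifit1: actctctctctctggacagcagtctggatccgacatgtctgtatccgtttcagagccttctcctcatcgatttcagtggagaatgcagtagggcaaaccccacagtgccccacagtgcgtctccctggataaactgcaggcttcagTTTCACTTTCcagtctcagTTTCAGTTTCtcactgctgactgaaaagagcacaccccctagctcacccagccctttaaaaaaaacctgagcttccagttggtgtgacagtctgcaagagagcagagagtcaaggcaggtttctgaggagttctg
B2m: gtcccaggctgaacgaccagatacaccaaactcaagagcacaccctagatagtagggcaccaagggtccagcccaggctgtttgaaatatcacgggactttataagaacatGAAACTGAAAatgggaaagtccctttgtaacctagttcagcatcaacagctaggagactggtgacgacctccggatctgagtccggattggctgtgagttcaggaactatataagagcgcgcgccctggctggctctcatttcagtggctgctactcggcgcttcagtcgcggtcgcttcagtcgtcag
Bnip3: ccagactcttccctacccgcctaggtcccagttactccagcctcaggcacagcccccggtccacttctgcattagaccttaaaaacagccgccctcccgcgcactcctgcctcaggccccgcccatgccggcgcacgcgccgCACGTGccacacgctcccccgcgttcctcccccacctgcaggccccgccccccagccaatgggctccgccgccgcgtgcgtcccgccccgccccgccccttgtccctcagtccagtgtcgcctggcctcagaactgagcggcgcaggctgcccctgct
Cxcl10 holds 1 match and Ifit1 holds 2. B2m holds 1, while the promoter of H2-K1, another class I gene, holds no exact match in the window read. Only exact matches to this core were counted, so variant forms of the element, in H2-K1 or elsewhere, are not seen. The core stands in 12 of the 23 antiviral promoters available (52.2%) and in 5 of the 20 of the class I list (25.0%). The CArG box, the element of serum response factor, was also searched, as CC, a run of A or T, then GG. Neither Acta2 nor Fosb, of the contractile and immediate early genes, has an exact match in this window (1.28% of tested promoters have 1). Acta2 does hold stretches that differ from this pattern by 1 base, which were not counted. A match describes the letters and was not tested as a binding site.

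Interferon-induced antiviral genes were lower at number 4 in KI and in KIX. Of 32 such genes, all tested, 27 fell and 5 rose on the mean change, and 19 fell as shared changes while no rise was shared, with a median change of -1.10. Per-library values below are in the order D then V of KI, then D then V of KIX. Cxcl10, a chemokine that draws in T cells, stood at 72.1, 88.6, 83.4 and 50.1 FPKM at number 1 and at 4.18, 3.54, 6.15 and 4.08 FPKM at number 4. The groups were far apart, and the mean change was -3.75 (SE 0.18, adjusted p = 7.16e-05). Rsad2, the antiviral radical SAM enzyme viperin, went from 13.9, 18.1, 16.1 and 10.8 FPKM to 0.833, 0.728, 1.16 and 0.816 FPKM, a change of -3.04 (SE 0.14). Rsad2 entered the test through number 1. Its chromosomal neighbour Cmpk2, a mitochondrial nucleotide kinase, changed by -2.63 (SE 0.16, adjusted p = 0.000151). Every library of number 4 lay below every library of number 1 for all 3 genes.

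The proteins of the Ifit family bind foreign RNA. Ifit1 stood at 58.4, 61.5, 59.1 and 46.6 FPKM at number 1 and at 7.22, 7.18, 14.8 and 8.87 FPKM at number 4 (change -2.50, SE 0.15, adjusted p = 0.000151), and Ifit3 fell alike (change -2.50, adjusted p = 0.000254). Isg15, a ubiquitin-like modifier, went from 128 to 176 FPKM down to 23.5 to 57.9 FPKM, and Usp18, the protease that removes it and damps receptor signalling, from 39.7 to 56.0 FPKM down to 7.74 to 16.1 FPKM. The transcription factor Stat2 also fell in both prefixes (mean change -0.93). Among the RNA sensors, Ifih1 fell in both prefixes (mean change -1.67), and Ddx58 fell in KI (-0.54, adjusted p = 0.0333). The Toll-like receptor Tlr3, which senses double-stranded RNA, went from 1.75 to 2.59 FPKM down to 0.616 to 0.997 FPKM. The receptors and sensors as a list were mixed: of 11 tested, Tlr3 among them, 3 rose and 5 fell on the mean change, 1 and 2 as shared changes, with a median of -0.06. The receptor chain Ifnar2 was the shared rise (0.50).

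GTPases known as targets of interferon-gamma in the mouse moved the same way. Of 11 tested, 10 fell on the mean change and 8 were shared falls, with none rising and a median change of -0.92. Iigp1, a GTPase that attacks the vacuoles of parasites, stood at 11.7 to 17.2 FPKM at number 1 and at 1.88 to 4.61 FPKM at number 4, a change of -2.06 (SE 0.16, adjusted p = 0.000307). Gbp7, Gbp3 and Irgm2 changed by -1.27, -1.09 and -1.06. Irf1, a transcription factor induced by interferon-gamma, went from 34.5 to 41.8 FPKM down to 22.7 to 30.7 FPKM (change -0.58, adjusted p = 0.000464). The shared count of the list dropped to 4 without KIXD1 and to 5 without KIXV4.

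The 5 antiviral genes that rose against the rest of their list were Irf7, Bst2, Xaf1, Oas1a and Oas1g, each called in KIX and not in KI. Irf7, the factor that amplifies interferon production, stood at 34.5, 38.2, 34.8 and 29.3 FPKM at number 1 and at 50.6, 49.1, 73.0 and 54.5 FPKM at number 4 (mean change 0.70, SE 0.10, adjusted p = 0.00267). Bst2, the membrane tether of budding viruses, stood at 209 to 265 FPKM and then at 275 to 396 FPKM (mean change 0.57, adjusted p = 0.00658). Xaf1, a pro-apoptotic factor, went from 17 and 15.8 FPKM to 40.4 and 40.0 FPKM in KIX but stood at 11 and 14.3 FPKM and then at 13.5 and 12.2 FPKM in KI. This difference between the prefixes was called (1.21, adjusted p = 0.0235), but the 3 called differences of the list numbered 1 without KID1, KIV1 or KID4, 6 without KIV4 and 0 without any KIX library or with the replicate block, which ties libraries of the same prefix and letter. In no gene of the list was the KIX change called lower than that in KI. Oas1a and Oas1g are near-identical copies, so reads may be split unevenly between them.

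MHC class I genes rose at number 4, the opposite of most antiviral genes. Of 28 tested genes of class I and antigen processing, 14 rose and 4 fell on the mean change, and 10 rose as shared changes with no shared fall. H2-K1, a classical class I heavy chain, stood at 71.4, 68.2, 67.8 and 65.7 FPKM at number 1 and at 287, 232, 305 and 253 FPKM at number 4, a change of 1.96 (SE 0.08, adjusted p = 6.06e-05). H2-D1, the other classical chain, went from 62.4 to 73.9 FPKM up to 184 to 227 FPKM (change 1.59, SE 0.08, adjusted p = 7.16e-05). B2m, the light chain that all class I molecules need, went from 321 to 381 FPKM up to 710 to 820 FPKM (change 1.11, SE 0.06, adjusted p = 0.000111). The levels at each number were close together and the numbers did not overlap for any of these genes.

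Non-classical class I genes rose as well. H2-Q6 stood at 2.58, 1.91, 1.94 and 1.55 FPKM at number 1 and at 15, 11.8, 18.1 and 14 FPKM at number 4 (change 2.39, SE 0.12, adjusted p = 8.78e-05). H2-Q7, H2-Q4 and H2-Q8 changed by 2.22, 2.01 and 1.6, H2-T23 by 1.03 and H2-Q9, at or under 1.61 FPKM, by 1.00. The H2-Q genes are near-identical, so the split of reads among them is uncertain. Of the other parts of the pathway, the immunoproteasome subunit Psmb9 was a shared rise (change 0.82), Psmb8 rose in KIX (0.96, adjusted p = 0.00392) with a KI change of 0.52 (adjusted p = 0.0521), and the peptide transporter subunit Tap2 rose in KIX (0.60, adjusted p = 0.0287). Tap1, the other transporter subunit, had a mean change of 0.00 (SE 0.08, adjusted p = 0.995), and the proteasome activators Psme1 and Psme2 had mean changes of -0.02 and -0.06 (adjusted p = 0.894 and 0.286). Nlrc5, the transactivator of class I genes, went from 1.10 to 1.81 FPKM down to 0.469 to 0.985 FPKM (-0.47), and entered the test through number 1.

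**Figure D2:**
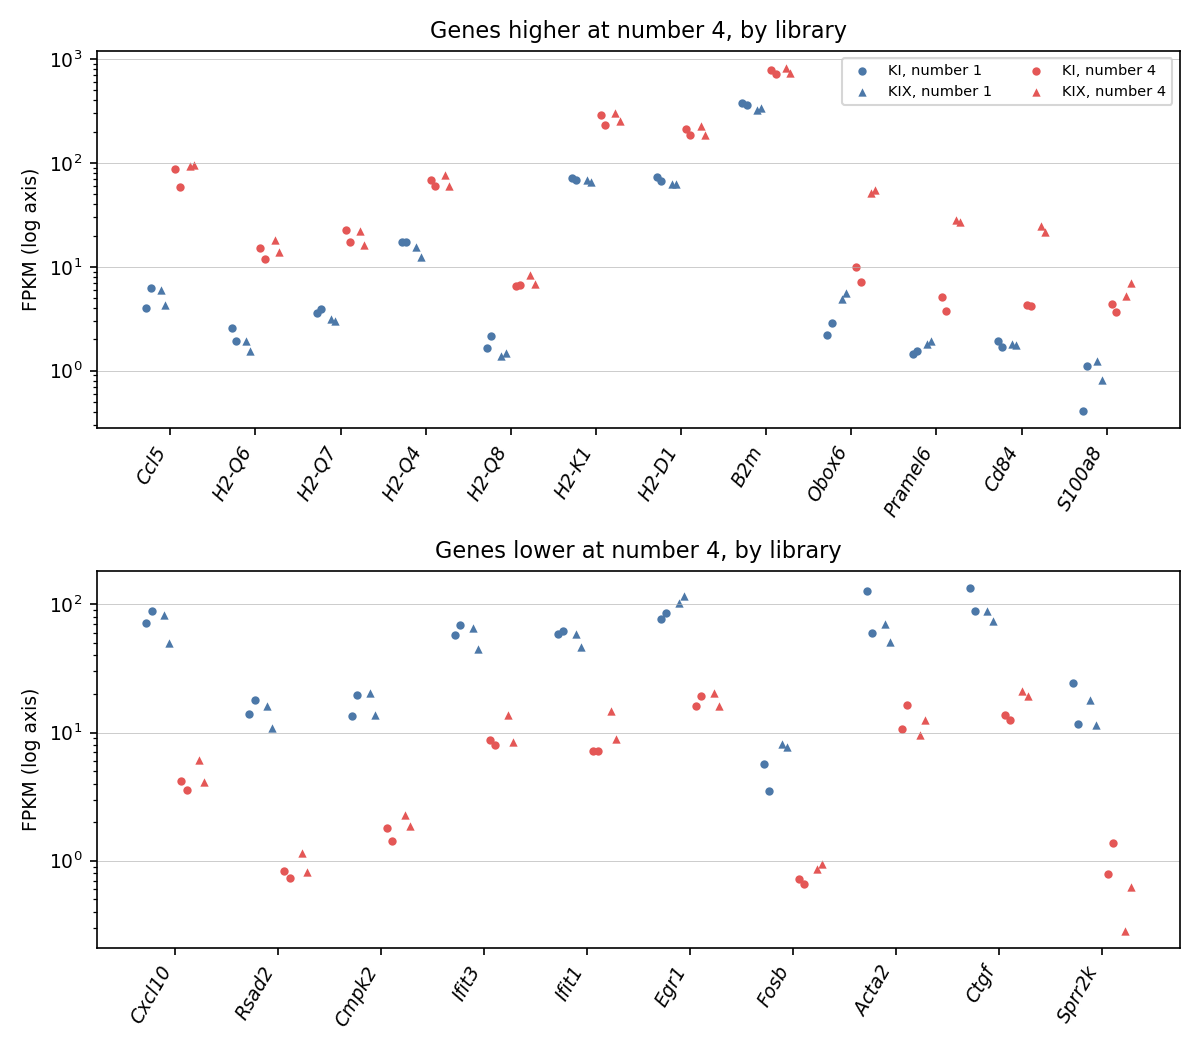
FPKM on a log axis in each of the 8 libraries, for 12 genes that were higher at number 4 (upper panel) and 10 that were lower (lower panel). Blue points are number 1 and red points number 4, circles KI and triangles KIX, and each point is 1 library. All red points stand above the blue ones in the upper panel and below them in the lower one. Obox6, Pramel6 and Cd84 show a wider step in KIX than in KI.

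Chemokines were divided. Of 22 tested, 3 were shared rises and 5 shared falls. Ccl5, which attracts T cells and monocytes, was the largest shared rise by the rule for named genes, from 4.04, 6.28, 6.05 and 4.32 FPKM at number 1 to 86.9, 58.8, 93.4 and 95.9 FPKM at number 4 (change 3.77, SE 0.17, adjusted p = 6.26e-05). Ccl8 went from 80.8 to 103 FPKM up to 141 to 165 FPKM, and Cxcl9 from 0.483 to 1.00 FPKM up to 1.62 to 2.63 FPKM (changes 0.75 and 0.84). Beside Cxcl10, the eosinophil attractant Ccl11 fell from 57.4 to 81.5 FPKM to 17.2 to 27.0 FPKM (change -1.64, SE 0.12, adjusted p = 0.000294), as did Cxcl14 (-1.32), Cxcl12 (-0.60) and Ccl4 (-0.50). Cxcl9, Cxcl10 and Cxcl11 bind the same receptor, Cxcr3, and among them Cxcl10 fell while Cxcl9 and Cxcl11 rose on the mean change (0.84 and 0.64). Without any 1 library the shared rises of the list numbered 1 to 3 and the shared falls 2 to 4.

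Among inflammatory mediators a few genes fell far, and calls went in both directions. Of 15 tested, 5 fell and 3 rose on the mean change, against 21.8% and 16.7% of all genes, with 4 shared falls, 1 shared rise and a median of -0.25. Ptgs2, the inducible prostaglandin synthase, stood at 52.7, 41.5, 44.9 and 40.3 FPKM at number 1 and at 6.39, 8.38, 9.99 and 10.0 FPKM at number 4 (change -2.25, SE 0.10, adjusted p = 6.26e-05). Il6, a cytokine that acts through gp130 and Stat3, went from 6.52 to 7.35 FPKM down to 0.901 to 2.41 FPKM (change -1.68, SE 0.07, adjusted p = 3.79e-05), and Il1rl1, the receptor of interleukin-33, from 112 to 153 FPKM down to 30.8 to 48.2 FPKM (change -1.57). The shared rise was Relb, a subunit of NF-kappaB (0.64). Within KI 9 of the 15 fell, but 3 did without KID4 and 4 without KID1, and within KIX 4 fell.

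Immediate early genes, which growth factors switch on within minutes, showed 7 shared falls and 1 shared rise among 12. Egr1 stood at 77.3, 86.3, 103 and 116 FPKM at number 1 and at 16.2, 19.3, 20.2 and 16.1 FPKM at number 4 (change -2.34, SE 0.09, adjusted p = 3.79e-05). Fosb went from 3.50 to 8.12 FPKM down to 0.655 to 0.942 FPKM (-1.96), and Egr3, Egr2, Fos, Klf6 and Jun changed by -1.71, -1.60, -1.38, -1.36 and -0.57. The shared rise was Ier3 (0.50), and Myc, at 22.9 to 25.9 FPKM in KI and 75.9 to 77.4 FPKM in KIX at number 1, was not called (-0.24, adjusted p = 0.0924). With the replicate block this list had 6 shared falls, and Ier3 was no longer a shared rise. Among the FGF and ERK feedback genes, which include Egr1, 4 of 12 were shared falls: beside Egr1 these were Spry2 (-0.52) and Etv5, both induced by ERK signalling, and the receptor Fgfr2 (-0.48). The ERK target Etv4 was a shared rise (0.32). With the replicate block the feedback list had 2 shared falls, and Etv4 was no longer a shared rise. Ctgf, a secreted protein known as a target of YAP and of TGF-beta, went from 74.6 to 135 FPKM down to 12.6 to 21.0 FPKM (change -2.47).

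Fibroblast, smooth muscle and matrix genes were lower at number 4 as well. Fewer cells of a type and less RNA per cell cannot be told apart in bulk libraries. Of the 10 fibroblast genes, all tested, 8 fell on the mean change and none rose, 4 were shared falls, and none was at 0 in any library of either number. Within KI 6 of the 10 fell, and within KIX 4 fell and 1 rose. Their summed level ran from 1696 to 2531 FPKM at number 1 and from 1143 to 1325 FPKM at number 4, without overlap. Lum, a matrix proteoglycan, stood at 82.6, 52.9, 63.1 and 64.6 FPKM and then at 21.5, 26.0, 18.5 and 20.4 FPKM (change -1.56, SE 0.14, adjusted p = 0.000468). Postn, Col1a2 and Dcn changed by -1.40, -0.89 and -0.78, Col1a1 by -0.64, Col3a1 by -0.59, Thy1 by -0.56 and S100a4 by -0.22. Fap (-0.20, adjusted p = 0.170) and Pdgfrb (0.46, adjusted p = 0.0591) were not called, so the members did not all move alike. Pdgfrb was called as a rise under quantile normalization and median-ratio scaling.

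Contractile genes fell too. Acta2, smooth muscle actin, stood at 128, 60, 70.8 and 50.9 FPKM at number 1 and at 10.7, 16.5, 9.62 and 12.6 FPKM at number 4 (change -2.49, SE 0.26, adjusted p = 0.000879), and Tagln, Myl9 and Actg2 changed by -1.78, -1.20 and -0.89. Of 7 tested, 6 fell on the mean change and 5 were shared falls, with a median change of -0.89 against -0.62 for the fibroblast list. The shared falls numbered 1 without KIXD1, 2 without KID4 or KIXD4 and 3 without KID1, KIXV1 or KIXV4. For the fibroblast list they numbered 1 without any of KIXD1, KIXV1, KID4, KIXD4 or KIXV4, and 6 without KIV1. Of 23 matrix genes 12 fell and none rose on the mean change (2 rose under quantile normalization). Among the falls were Mgp, an inhibitor of calcification (356 to 693 FPKM down to 113 to 216 FPKM), Eln (-1.27) and Mmp3 (-1.24). Within KI 13 matrix genes fell and none rose (median -0.66). Within KIX 6 fell and 2 rose (median -0.11), and 6 falls were shared. Actb, cytoplasmic actin and a common reference gene, fell from 1385 to 1449 FPKM to 900 to 936 FPKM (change -0.63, SE 0.05, adjusted p = 0.000399). The contractile list summed to 163.9 to 365.5 FPKM at number 1 and to 58.61 to 83.34 FPKM at number 4.

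Of 8 tested genes of macrophages and leukocytes, 3 fell and 1 rose on the mean change, against 21.8% and 16.7% of all genes. The list summed to 85.77 to 110.5 FPKM at number 1 and to 57.83 to 80.89 FPKM at number 4. Lyz2 and Tyrobp, markers of macrophages, were shared falls (-1.32 and -0.53), whereas Cd14 rose (0.35, adjusted p = 0.0293). No gene of these lists was at 0 in all 8 libraries. Of 3 tested endothelial genes 1 fell, Pecam1, which pluripotent cells also express (-0.29, adjusted p = 0.0173). The part of macrophage RNA in the immune genes above was not tested.

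**Figure D3:**
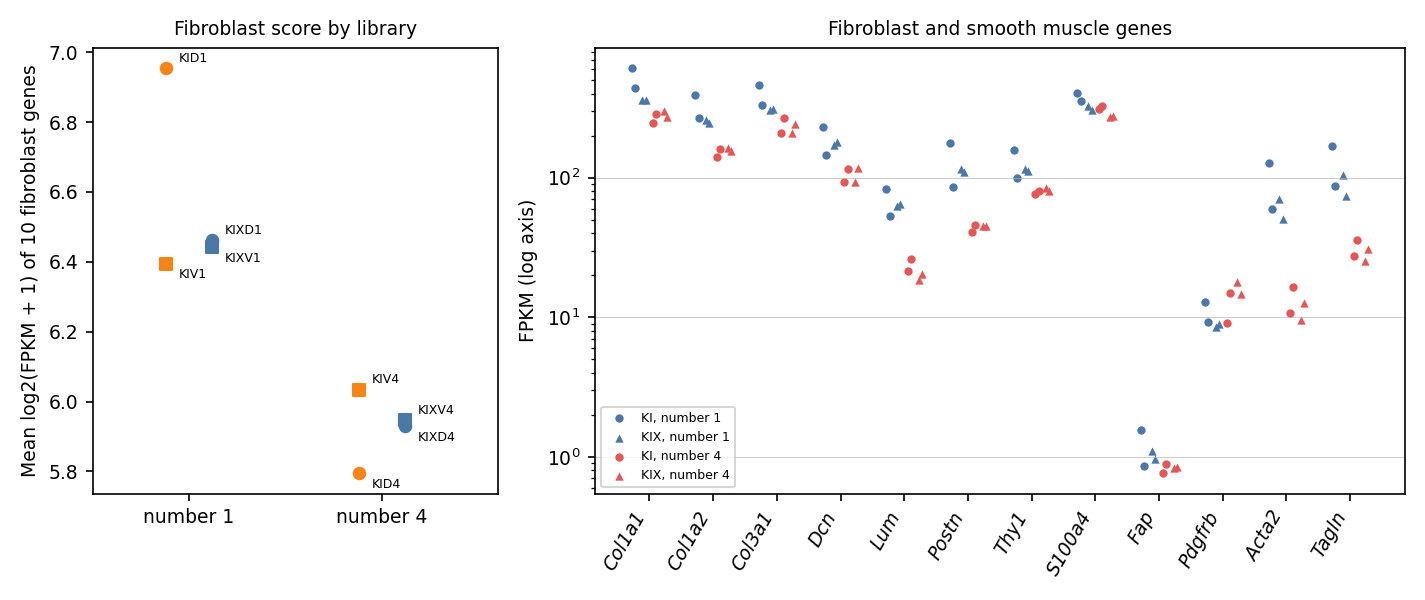
Left, the fibroblast score, the mean log2(FPKM + 1) of 10 fibroblast genes, in each library, with circles for D, squares for V, orange for KI and blue for KIX. Right, FPKM on a log axis of the 10 genes and of Acta2 and Tagln in each library, blue for number 1, red for number 4, circles KI and triangles KIX. The scores of number 1 (6.395 to 6.955) lie above those of number 4 (5.794 to 6.034), with KID1 highest.

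Because the fibroblast scores of the numbers do not overlap, a change of number and a change of fibroblast RNA cannot be told apart for most genes. With the score as a covariate, 157 genes were called on the mean change and 10 were shared. Of the antiviral list 14 genes fell on the mean change and none rose, of the GTPases 4 fell, of the immediate early genes 6 fell, and of the class I list 7 rose and none fell. None of the contractile genes and 1 of the fibroblast genes was called. The score is the mean of the fibroblast genes themselves, so the model removes their mean change by construction. The loss of their calls therefore tells nothing about these genes. Under this model H2-K1 and Ccl5 rose and Cxcl10, Rsad2, Ifit1, Egr1 and Il6 fell on the mean change.

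Cornified-layer genes, which make the barrier of the epidermis, showed 4 shared falls and 1 shared rise among 7 tested. Sprr2k, which entered the test through number 1, stood at 24.6, 11.6, 18.1 and 11.4 FPKM there and at 0.793, 1.36, 0.282 and 0.627 FPKM at number 4 (change -3.27, SE 0.25). Crct1 went from 19 to 35.5 FPKM down to 2.22 to 4.85 FPKM (-2.68). Sprr2h changed by -1.87. The Sprr2 genes are near-identical copies, so their separate values are uncertain. S100a8, which encodes a calcium-binding protein of keratinocytes and neutrophils, was the shared rise, from 0.407 to 1.23 FPKM up to 3.71 to 7.01 FPKM (change 1.68, SE 0.15, adjusted p = 0.000517).

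Markers of the primed epiblast were lower at number 4, and for 4 of them the change was called lower in KIX than in KI. Of 12 genes, 8 fell on the mean change, 7 fell as shared changes and none rose, with medians of -0.48 in KI and -1.01 in KIX. Otx2, a homeodomain factor of the formative epiblast, stood at 43.2, 39.8, 40.0 and 36.1 FPKM at number 1 and at 28.9, 27.4, 12.8 and 15.4 FPKM at number 4. It fell by 0.54 in KI and by 1.38 in KIX, and the changes differed (-0.83, adjusted p = 0.0378). Fgf15, a growth factor, changed by -1.03 in KI and -1.91 in KIX, and Lef1, a Wnt effector, by -0.55 and -1.89, each with a called difference (adjusted p = 0.0315 for both). Zic2 (-0.86), Zic5 (-0.69) and Pou3f1 (-0.83) were also shared falls. Fgf5, a marker of the primed state, was not called (-0.01, adjusted p = 0.961). The shared falls numbered 3 without KID1, 4 without KIV1 or KID4 and 2 with the replicate block. The called differences numbered 1 without KID1 or KID4, 0 without KIV1 or any KIX library, 7 without KIV4, 1 with the fibroblast score as covariate and 0 with the block. With that covariate 2 genes fell on the mean change and 8 within KIX, and the median of the mean change was -0.71, against -0.76 without it.

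**Figure D4:**
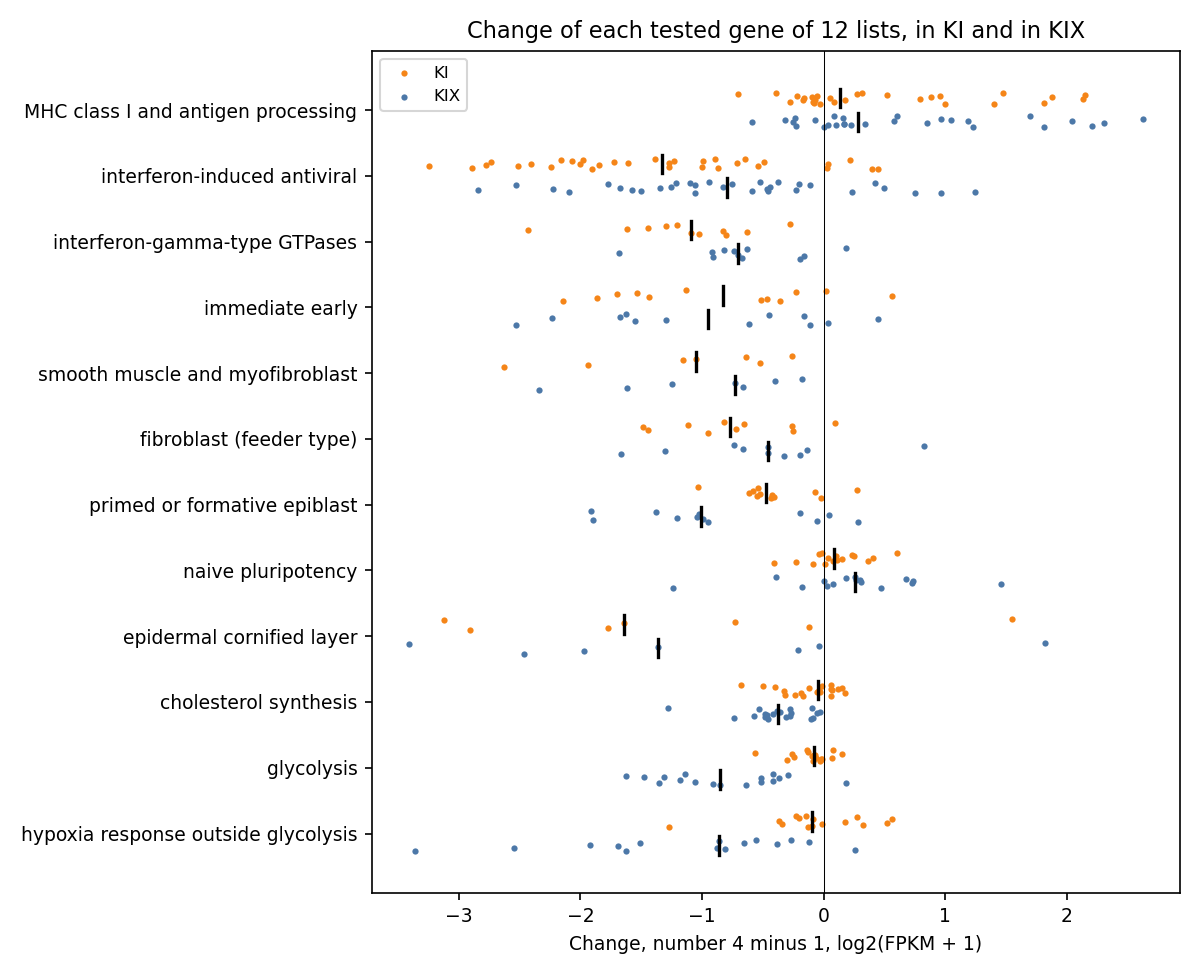
Change from number 1 to number 4 of each tested gene of 12 lists, in KI (orange) and in KIX (blue), in log2(FPKM + 1), with the median of each list as a black bar. The medians of the antiviral, GTPase, immediate early and contractile lists lie left of 0 in both prefixes, while those of the glycolysis and hypoxia lists are -0.85 and -0.86 in KIX and -0.08 and -0.09 in KI. Class I genes reach 2.63 on the right in KIX.

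Some naive genes were higher at number 4. Of 16 tested, 7 rose and 2 fell on the mean change, and the shared changes were rises of Zfp57, which guards imprints (57.5, 58.2, 58.0 and 54.9 FPKM, then 77.5, 76.4, 93.5 and 95.8 FPKM), and of Tdh, threonine dehydrogenase (0.26). Of 12 general pluripotency genes, 1 rose and 3 fell on the mean change, against 16.7% and 21.8% of all genes, with a median of -0.05. The rise was Nanog, a core factor, in both prefixes, from 179 to 225 FPKM to 253 to 289 FPKM (change 0.39, SE 0.04, adjusted p = 0.000940). It was not shared without KIXD1, KIXV1 or KIXV4, nor with the fibroblast covariate. Its mean change was also not called with that covariate or with means by letter and number. The falls were those of the Nodal co-receptor Tdgf1 (-0.31), of L1td1 (-0.26) and of Lin28a (-0.22), both RNA-binding proteins, each called in KIX and not in KI. Tfcp2l1, a factor downstream of LIF, rose in KIX from 12.7 and 12.3 FPKM to 34.6 and 37.4 FPKM, and stood in KI at 14.3 and 15.2 FPKM and then at 16.2 and 22.9 FPKM. Its changes differed between the prefixes (1.09, adjusted p = 0.0478), the one called difference of the list, which was lost without KID1, KIV1 or any KIX library, with the fibroblast covariate and with the block. Prdm14, Tbx3 and Esrrb rose in KIX by 0.68, 0.73 and 0.30, while Zfp42 rose in KI (0.60, adjusted p = 0.0123). Dppa3, a maternal factor expressed in naive cells, fell in KIX from 91.2 and 98.2 FPKM to 36.1 and 43.6 FPKM, against the direction of the list. Rises in KIX numbered 7 of the 16 with all libraries and 4 to 9 when any 1 was left out.

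Signals that shape these states moved too. Lefty1, a Nodal inhibitor and target, stood at 240, 244, 317 and 326 FPKM at number 1 and at 100, 98.0, 79.9 and 86.9 FPKM at number 4 (change -1.61, SE 0.04, adjusted p = 5.45e-06), and its fall was larger in KIX (difference -0.66, adjusted p = 0.0204). This call, the one of the Nodal and Wnt list, was lost without KID1, KIV1 or any KIX library and with the block. Lefty2, its paralog, was a shared fall (-0.73), and Cer1, a secreted Nodal and BMP inhibitor, was a shared rise (0.96, SE 0.15, adjusted p = 0.00421). With the block the rise of Cer1 was no longer shared. Lif, the cytokine that holds mouse cells naive, fell in both prefixes from 7.90 to 10.8 FPKM to 3.94 to 5.69 FPKM. Socs3, Bcl3 and Gbx2, targets of its Stat3 pathway, were shared rises (0.63, 0.51 and 0.73). Of the 12 genes of the LIF and Stat3 list, 4 rose and 1 fell on the mean change, with a median of 0.13, and without KID1 none of the rises was shared. The simple-epithelium keratins Krt18 and Krt8 were shared rises (0.86 and 0.64), and Cdx2 of the trophoblast was a shared fall at or under 1.14 FPKM. Cdx2 lay so near the filter of 1 FPKM that its call is given as a description only. With the block none of these changes was shared.

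The de novo methyltransferases were lower at number 4. Dnmt3a fell in KI (-0.58) and in KIX (-1.02, from 26.1 and 24.9 FPKM to 11.4 and 12.7 FPKM). Dnmt3b fell in KIX from 145 and 144 FPKM to 68.8 and 75.6 FPKM, and its KI change of -0.43 was not called (adjusted p = 0.0542). The cofactor Dnmt3l stood at 94.6 and 82.5 FPKM in KIX and then at 44.8 and 45.7 FPKM, but at 115 and 99.4 FPKM in KI and then at 110 and 105 FPKM. Its changes differed between the prefixes (-0.96, adjusted p = 0.0231), a call lost without KIV1 or any KIX library and with the block, whereas those of Dnmt3a (adjusted p = 0.0703) and Dnmt3b (adjusted p = 0.116) were not called different. The maintenance enzyme Dnmt1 and its partner Uhrf1 had mean changes of 0.08 and 0.02 (adjusted p = 0.276 and 0.772).

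Some genes rose mainly in KIX. Pramel6 and Pramel7, members of a family expressed in the early embryo, stood at 1.80 and 1.95 FPKM and at 2.11 and 2.00 FPKM in KIX at number 1, and at 28.0 and 26.8 FPKM and at 19.3 and 17.7 FPKM at number 4. In KI they stood at 1.46 and 1.56 FPKM and at 0.604 and 0.929 FPKM, and then at 5.16 and 3.79 FPKM and at 2.00 and 1.72 FPKM. The rise was called in both prefixes and was larger in KIX by 2.19 for Pramel6 (adjusted p = 0.00364) and by 1.97 for Pramel7 (adjusted p = 0.00373). Obox6, an oocyte homeobox gene, showed the same pattern (changes 1.42 in KI and 3.10 in KIX, adjusted p of the difference = 0.0190). Cd84, a receptor of leukocytes, went from 1.83 and 1.78 FPKM to 24.8 and 21.6 FPKM in KIX and from 1.93 and 1.69 FPKM to 4.29 and 4.22 FPKM in KI (difference 2.2, adjusted p = 0.000708). Obox and Pramel genes belong to multigene families, so their reads may be split.

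The metalloprotease gene Mep1b, the betaine methyltransferase gene Bhmt and Trim43a of a preimplantation gene family were higher in KIX at number 4. Mep1b stood at 1.27 and 0.865 FPKM and then at 12 and 10.8 FPKM in KIX, against 1.58 to 2.25 FPKM in all KI libraries of both numbers (difference 2.41, adjusted p = 0.00357). Bhmt stood at 4.58 and 4.50 FPKM in KIX at number 4 and at or under 0.101 FPKM in the other libraries. Trim43a stood at 4.31 and 3.85 FPKM there and at or under 0.113 FPKM elsewhere. Both reached the filter only through these 2 libraries, so their values are given without a test. Sp110, a gene of nuclear bodies, rose in KIX from 2.53 and 2.21 FPKM to 10.5 and 8.39 FPKM and stood in KI at 1.16 and 1.28 FPKM and then at 0.863 and 0.893 FPKM (difference 1.86, adjusted p = 0.00497). With the fibroblast score as covariate, 157 genes were called on the difference of the changes, 98 higher in KIX and 59 lower.

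Glycolysis genes fell in KIX. Of 17 tested, 16 fell within KIX (median -0.85) and 1 within KI (median -0.08), and the difference between the prefixes was called for 4. Pgk1, phosphoglycerate kinase, stood at 1601 and 1368 FPKM and then at 506 and 557 FPKM in KIX, and at 1233 and 1181 FPKM and then at 1252 and 812 FPKM in KI. Ldha, lactate dehydrogenase, went from 1449 and 1318 FPKM to 604 and 610 FPKM in KIX (-1.19, adjusted p = 0.00145), and stood at 1161 and 1015 FPKM and then at 1138 and 909 FPKM in KI. Called differences were those of Tpi1 (-1.33, adjusted p = 0.0394), Ldha (-1.09, adjusted p = 0.0378), Pfkl (-1.06, adjusted p = 0.0235) and Eno1 (-0.99, adjusted p = 0.0417). Pfkl, a phosphofructokinase subunit, was the shared fall, and Hk1 was the gene that did not fall in KIX (0.18, adjusted p = 0.0966). Without KIXD1 8 genes fell in KIX and without KIXD4 9 did.

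Genes of the hypoxia response outside glycolysis moved alike. Of 15 tested, 12 fell and 1 rose within KIX (median -0.86), 2 fell within KI (median -0.09), and the difference was called for 5, all lower in KIX. Ndufa4l2, a mitochondrial protein induced by low oxygen, stood at 25.8 and 21.3 FPKM and then at 1.74 and 1.07 FPKM in KIX (-3.36, adjusted p = 0.00175). In KI it stood at 12.6 FPKM in both libraries of number 1 and at 18.8 and 6.82 FPKM at number 4. Bnip3, a receptor for removal of mitochondria, went from 86.4 and 70.5 FPKM to 11.2 and 14 FPKM in KIX (-2.55, adjusted p = 0.00199) and stood at 58.1 and 53.5 FPKM and then at 79.9 and 38.0 FPKM in KI. Egln3, a prolyl hydroxylase that marks the factor for destruction, and Ndrg1, a stress gene, fell in KIX by 1.92 and 1.69. The lactate exporter Slc16a3, which is outside this list, fell in KIX by 2.44. In KI at number 4 the D library lay above the V library for all of these genes, and the spread between them was wide.

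The one gene of that list that rose in KIX was Hif1a itself, from 42.8 and 44.6 FPKM to 52.9 and 51.7 FPKM (0.25, adjusted p = 0.0324), and the shared falls were Adm, a vasodilator peptide (-1.45), and the carbonic anhydrase Car12 (-0.38). The calls of a difference between the prefixes depended on single libraries: without any 1 of the 4 KIX libraries or of the 2 KI libraries of number 1 no gene of the list was called different, without KID4 7 were, and without KIV4 9 were. For glycolysis the count was 2 without KID1, 3 without KID4, 13 without KIV4 and 0 without any of the others. The falls of the hypoxia list in KIX were also fewer without KIXD1, KIXD4 or KIXV1 than with all libraries. With the fibroblast score as covariate, 10 glycolysis and 7 hypoxia genes fell in KIX, the called differences numbered 2 and 1, and none fell on the mean change. With the replicate block the called differences numbered 0 and 1. On the mean change 15 glycolysis and 11 hypoxia genes fell, of which 1 and 3 were called with means by letter and number.

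**Figure D5:**
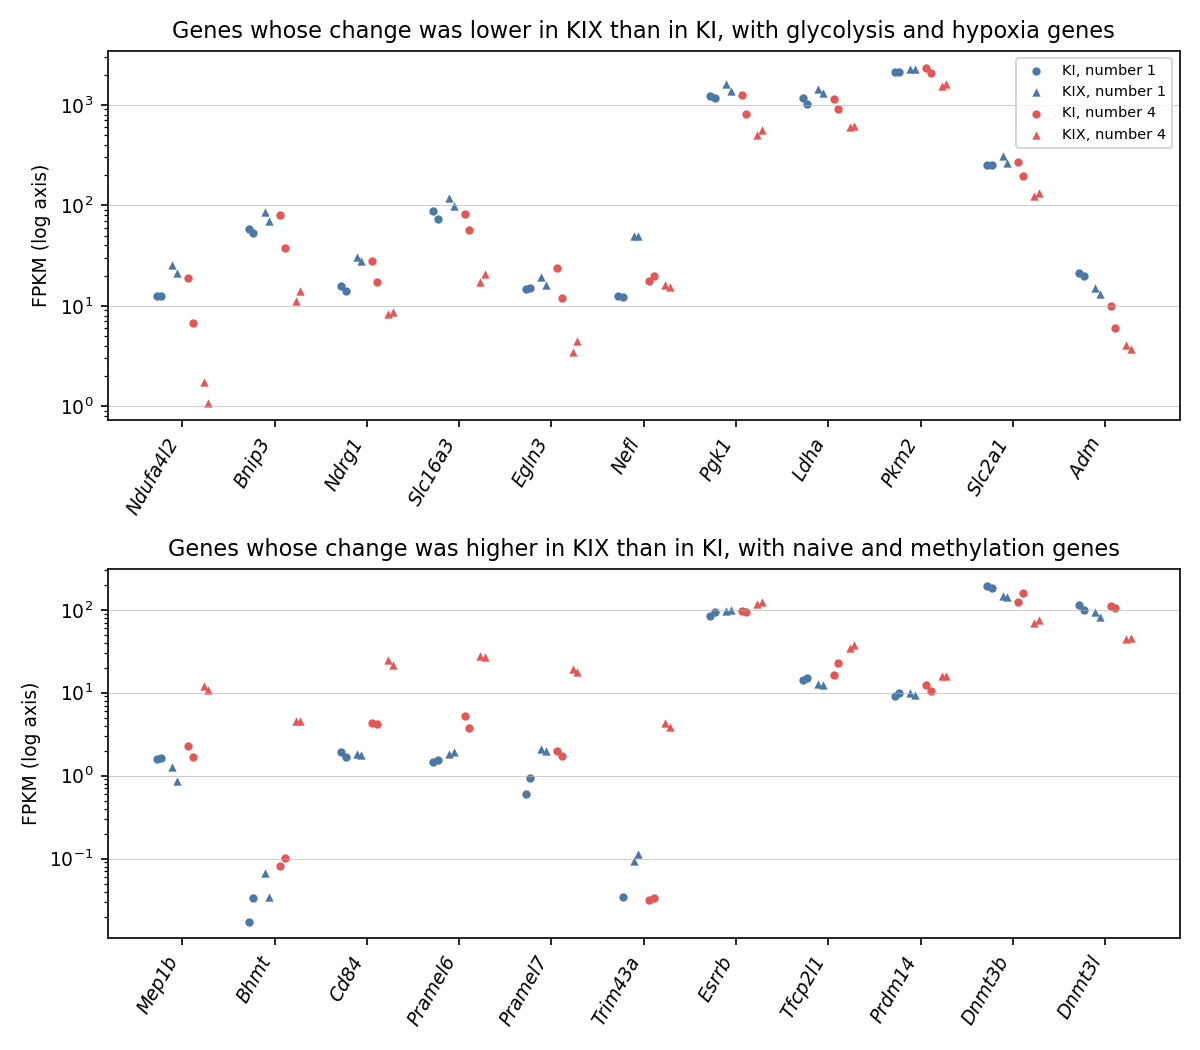
FPKM on a log axis in each of the 8 libraries for genes lower in KIX at number 4 (upper panel) and for genes higher there, with naive and methylation genes (lower panel). Blue points are number 1 and red points number 4, circles KI and triangles KIX, and the Trim43a value of 0 in KID1 is not drawn. In the upper panel the red triangles lie below the other points for Bnip3, Slc16a3 and Egln3, and Nefl is higher in KIX than in KI at number 1.

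Nefl, a neurofilament gene, changed in opposite directions, from 12.7 and 12.3 FPKM to 17.6 and 19.9 FPKM in KI (0.55, adjusted p = 0.00591) and from 49.3 and 49.7 FPKM to 16.2 and 15.3 FPKM in KIX (-1.59, adjusted p = 7.27e-05). At number 4 the prefixes lay close together. It was 1 of 25 genes (0.195%) called in both prefixes with opposite signs. Tubb3, a neuronal tubulin, fell in KIX from 80.0 and 81.1 FPKM to 38.2 and 34.7 FPKM, with a KI change of 0.07 (difference -1.19, adjusted p = 0.00848), and the call was lost without KIXD1, KIXV1 or KIXV4 and with the block.

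Sterol genes fell modestly. Of 20 genes of cholesterol synthesis and uptake, 12 fell and none rose on the mean change, 5 as shared falls, with a median change of -0.21. Insig1, a sterol sensor, went from 42.6 to 50.3 FPKM down to 27.9 to 36.7 FPKM (-0.53, adjusted p = 0.000678). The synthesis enzymes Sc5d and Lss were also shared falls (-0.51 and -0.39). Without single libraries the shared falls numbered 1 to 6. In the amino acid response list Atf3 was a shared fall (-1.34) and Ddit3, the stress factor CHOP, a shared rise (0.94, SE 0.11, adjusted p = 0.00114), while Atf4, which acts upstream of both, fell on the mean change (-0.40). The imprinted genes H19 and Impact were shared falls (-0.78 and -0.47). In the cell cycle list of 18 genes 2 rose and 5 fell on the mean change, against 16.7% and 21.8% of all genes. No change of this list was shared, against 8.57% of all genes.

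The mature strand of the induced microRNA, miR-203-3p, lies at chr12:112130927-112130948 on the plus strand (GRCm38.p6). It is shown because the construct makes it, with its seed, bases 2 to 8, in capitals.
miR-203-3p: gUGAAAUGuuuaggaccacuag
The gene Mir203 was listed at 0 in KI at both numbers, against the genotype and doxycycline that the labels give those libraries, and stood at 1868 and 1969 FPKM in KIX at number 1 and 2254 and 1728 FPKM at number 4, with no call between the numbers (0.04 in KIX, adjusted p = 0.810). PolyA libraries do not measure the mature strand. Of 10 tested genes reported elsewhere as miR-203 targets, 2 rose and 3 fell on the mean change (median 0.03), against 16.7% and 21.8% of all genes. Within KIX 5 rose and 2 fell (median 0.24), against 14.7% and 16.6% of all genes. Within KI 2 rose and 2 fell (median -0.21), against 5.27% and 9.75% of all genes. No difference between the prefixes was called. The rises in KIX numbered 2 without KIXD1, KIXV1 or KIXD4. Snai2, a factor of epithelial to mesenchymal transition, was a shared rise from 2.04 to 2.47 FPKM to 3.42 to 4.81 FPKM (0.68, adjusted p = 0.000734), and the other called genes include Dnmt3a and Dnmt3b, described above.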

How the data were processed

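PolyA RNA of mouse iPSC libraries was sequenced from strand-marked libraries, per the labels' protocols. The submitters' processing notes name FastQC, TopHat2 2.0.10, Bowtie 1.0.0, SAMtools 0.1.19, Cufflinks 2.2.1 and build GRCm38. The authors deposited FPKM values per gene, scaled to transcript length and library size, without counts, so sequencing depth is unknown and no counting error can be given. The settings used to share reads among similar genes are not given in the sources used here.

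From these values, log2(FPKM + 1) was fitted with limma 3.58.1 in R 4.3.3 (trended empirical Bayes, two-sided, Benjamini-Hochberg over all 12835 genes), with 4 means of prefix by number and D and V as the 2 replicates of each. The pseudocount understates changes of low genes. Contrasts gave the change in KI, in KIX, their mean and their difference. The fit was tested on simulated data. Groups were taken from the titles.

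The comparison and the 38 gene lists were chosen with earlier results of these data known. Named genes were the 10 largest shared rises and falls without overlap between numbers, the 6 largest called differences in each direction, up to 4 called genes per list, Pou5f1, Nanog, Sox2, Dnmt3a, Dnmt3b, Mir203 and the fibroblast genes. Predicted models and small RNA genes were left out. Further list genes are named for their role, after their values were seen. Alternatives covered pseudocount, filter, scaling, model design, the 12 iPSC libraries, a fibroblast covariate and leaving out each library. Promoter and miRNA sequences came from RefSeq, build GRCm38.p6. The number 10 libraries entered only that alternative fit and are described without a test, and the 4 embryoid body libraries were not analysed here. Some genes are not reported here.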

Additional observations from a re-analysis of the deposited data

Results flagged for a closer look

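All named genes were screened at both numbers for a library that stood apart, and chance alone would give some such cases. In a few genes 1 library stood apart from the other 3 of its number, by a gap that chance gives in about 1 in 20 groups. For H2-Q8 at number 4 this was KIXD4, at 8.317 FPKM with the nearest library at 6.781. For Tlr3 at number 1 it was KIXV1, at 1.751 FPKM with the nearest at 2.465. For Sdha, a respiratory chain subunit, at number 1 it was KID1, at 97.98 FPKM with the nearest at 102. For Postn at number 4 it was KID4, at 40.92 FPKM with the nearest at 45.17. The fibroblast score of KID1, 6.955, also stood above the other 3 of number 1.

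Among the genes whose change from number 1 to number 4 differed between the prefixes, 12 were named for the size of the difference, the 6 largest in each direction, with the interaction contrast of the limma model called at a Benjamini-Hochberg adjusted p under 0.05. As KIX minus KI on the log2 scale, the difference was 2.41 for Mep1b, 2.309 for Bhmt, 2.203 for Cd84, 2.188 for Pramel6, 2.179 for Trim43a and 1.973 for Pramel7. It was -3.233 for Ndufa4l2, -2.533 for Bnip3, -2.212 for Ndrg1, -2.206 for Slc16a3, -2.144 for Nefl and -2.097 for Egln3. Mep1b, Cd84, Pramel6, Pramel7 and Nefl kept the call under every alternative that fitted this contrast. Bhmt and Trim43a entered the test only through KIXD4 and KIXV4, where they were high, so their call is no support, no value could be had without either library, and with a pseudocount of 0.01 they were not called (adjusted p = 0.0741 and 0.144). Ndufa4l2, Bnip3 and Egln3 were not called without a filter on low values (adjusted p = 0.081, 0.0814 and 0.089), with the fibroblast covariate (0.0776, 0.0839 and 0.0938) or with the replicate block (0.104, 0.106 and 0.128), and leaving out any library other than KID4 or KIV4 ended their call. Egln3 was also not called with a filter at 5 FPKM or without the trend of the empirical Bayes step (adjusted p = 0.053 for both). Ndrg1 and Slc16a3 were not called without KIV1 or any 1 of the KIX libraries, and Ndrg1 also not without KID1 (adjusted p = 0.0501).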

How the results depend on the processing

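The counts of calls were 4938 genes on the mean change, 1929 in KI, 4009 in KIX, 277 on the difference of the changes and 1100 shared. Leaving out 1 library gave 2815 to 5882, 437 to 4005, 1334 to 5099, 18 to 2538 and 351 to 1576. On the mean change the count was 2815 without KIXD1 and 2983 without KIXD4, and on the difference it was 80 without KID1, 35 without KIV1, 174 without KID4, 2538 without KIV4, and 18 to 24 without any KIX library. The difference of the changes gave 129 genes without a filter on low values, 181 with a filter at 5 FPKM and 545 in the fit of the 12 iPSC libraries. Means by letter and number gave 1325 genes on the mean change, and number means alone gave 2612. With the fibroblast score as covariate the counts were 157 on the mean change, 10 in KI, 1342 in KIX, 157 on the difference and 10 shared. The cause of these shifts was not tested, other than that fewer libraries or an added term leave fewer degrees of freedom. Quantile normalization moved the split of the calls: 2734 higher and 2401 lower on the mean change, 1113 and 999 in KI, and 636 and 587 among shared genes, of which 941 were also shared without it. With the replicate block, which ties the libraries of the same prefix and letter, there were 3359 genes on the mean change, 525 in KI, 2431 in KIX, 24 on the difference and 381 shared. The labels do not say whether a letter marks the same culture or treatment across the numbers. Over 1776 genes the D minus V difference at number 1 correlated with that at number 4 at -0.296 in KI and 0.18 in KIX, which cannot decide it. With the covariate, 7 named genes changed sign: Dusp4 to 0.0109, Csf1r to 0.113, Pou5f1 to -0.0473, Sox2 to -0.154, Col3a1 to 0.0346, Thy1 to 0.107 and Fap to 0.285. Col3a1, Thy1 and Fap are themselves part of the score. Mir203, not called, ran from -0.0752 without KIXD4 to 0.116 without KIXV4. No named gene changed sign under either scaling alternative. Depth is unknown, so the error of low values could not be set apart from other spread.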

Other observations

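The libraries with number 10 in their titles were not part of the comparison, and their values are given without a test. The summed level of the antiviral list was 840.3 to 1085 FPKM at number 1, 527 to 852.9 FPKM at number 4 and 2446 to 3918 FPKM at number 10. The GTPase list summed to 161.6 to 219.1, 81.2 to 117.1 and 438.6 to 783.3 FPKM. In both lists number 10 lay above the other numbers without overlap. Cxcl10 stood at 376 to 821 FPKM at number 10, and Ndufa4l2 at 1.52 to 2.07 FPKM in KI and KIX alike. The primitive streak list summed to 62.93 to 76.49 FPKM at number 1, 58.95 to 108.7 FPKM at number 4 and 6.023 to 24.49 FPKM at number 10.

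Of the genes of other lineages, the endoderm list summed to 14.52 to 21.92 FPKM at number 1 and 19.83 to 28.32 FPKM at number 4, and the germ line list to 97.44 to 119.2 and 82.98 to 117.4 FPKM. The trophoblast and simple-epithelium list summed to 100 to 117.4 and 107.7 to 128.2 FPKM. Of 7 tested endoderm genes, 5 rose and 1 fell on the mean change. The rises include Sox17 and Sox7, factors of endoderm (0.78 and 0.55). Both were under 1 FPKM at number 1 and entered the test through number 4, so their rises are given as a description. Of 8 germ line genes 2 rose and 3 fell, and no change was shared. Of 21 respiratory chain subunits 2 rose and 1 fell. Over all tested genes, 16.7% rose and 21.8% fell on the mean change, and 8.57% were shared.

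Among 734 genes shorter than 200 bases in the table, 207 were above 0 in at least 1 of the 8 libraries. Snord95, a small nucleolar RNA gene chosen after its values were seen, was listed at 207.3, 191.9, 199 and 201.2 FPKM in the libraries of number 1 and at 0 in all 4 of number 4. Within KIX 8 such genes were above 0 in both libraries of number 1 and listed at 0 in both of number 4, and 5 showed the reverse.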
